A study of Mus musculus with 6 samples.

Results

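The genes described here are Aqp4, Aldh1l1, Slc4a4, Agt and Itih3, 5 astrocyte genes among the 223 genes that the authors listed as different between murine brainstem gliomas with and without the histone mutation H3.3K27M. They are the rows of the deposited table that carry these names, and all 5 names were found. They were selected on the authors' adjusted p for the contrast of the groups, since only genes under 0.05 are in the table, and on being higher with the mutation. Their difference between the groups is therefore given as a description. The mice were C57BL/6, with floxed p53 and a Nestin tv-a transgene, which puts an avian virus receptor on cells in which the nestin promoter is active. All 6 tumours combined p53 loss with PDGF-B, a growth factor able to drive gliomas. The 3 H3.3K27M tumours also carried the lysine-to-methionine mutant of histone H3.3. The other 3 are labelled H3.3WT in their titles, and whether a wild-type H3.3 was introduced into them is not given in the sources used here. Neither the age of the mice nor the cell content of the frozen tumour pieces is given. The number that opens each title differs between the groups, and whatever it marks cannot be told apart from the mutation.

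Astrocytes are the glial cells that take up transmitter, buffer ions and water, and wrap blood vessels with their endfeet. Aqp4 is the water channel of these endfeet. Aldh1l1 is an enzyme of folate metabolism and is widely used to mark astrocytes. Slc4a4 is the sodium bicarbonate cotransporter NBCe1, which astrocytes use to regulate pH. Agt encodes angiotensinogen, the precursor of the angiotensin peptides, which in the brain is made mainly by astrocytes. Itih3 encodes a heavy chain of the inter-alpha-trypsin inhibitors, secreted proteins that bind hyaluronan and are made mainly by the liver.

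All 5 genes were higher in the H3.3K27M tumours, by 2.14-fold for Agt to 3.77-fold for Itih3, and for none of them did the ranges of the groups overlap. Aqp4, Aldh1l1 and Slc4a4 lay close together at 2.99-fold, 2.98-fold and 2.92-fold. The table lists 1.36% of 16365 gene tests at an adjusted p under 0.05, and 1.11% as higher with H3.3K27M, or 0.813% with at least a 2-fold difference, which all 5 genes had. Since the 5 genes were taken from this list, nothing is read from their count. The values of the groups did not overlap in 222 of the 223 listed genes either. The median log2 ratio of the 5 genes was 1.58, against 1.32 over the 219 listed genes with a finite ratio and 1.58 over the 181 of these that were higher. In bulk tumour RNA, more cells of a type and more RNA per cell cannot be told apart.

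Aqp4 (ENSMUSG00000024411, chromosome 18) was measured at 807 normalized counts in H3.3K27M replicate 1, 499 in replicate 2 and 779.7 in replicate 3. In the tumours without the mutation it was at 203, 182 and 311. The lowest H3.3K27M tumour, replicate 2, was 1.60 times the highest of the others, replicate 3. The means were 695 ± 171 and 232 ± 68.9 normalized counts (SD, n = 3 each). For Aqp4 the adjusted p in the authors' deposited table was 9.62e-04. No other member of a list of 20 endfoot and dystrophin complex genes, which also holds the potassium channel Kcnj10, is in the table.

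Aldh1l1 (ENSMUSG00000030088, chromosome 6) was at 323, 199 and 266 normalized counts in the H3.3K27M tumours and at 81.5, 78.1 and 105 in the others. Replicate 2 was again the lowest with the mutation, and replicate 3 the highest without it. The gap between the groups was the widest of the 5 genes, as the lowest H3.3K27M value was 1.90 times the highest value without the mutation. The means were 263 ± 62.1 and 88.1 ± 14.5 (SD, n = 3 each), with an adjusted p of 1.94e-04 in the authors' deposited table. Exons of 2 noncoding genes overlap Aldh1l1 in GENCODE M21. The antisense gene Gm15756 shares 499 bases, or 11.0%, of its exon sequence and the long noncoding gene Gm45901 shares 105 bases. Whether reads from there were counted for Aldh1l1 is unknown, since the counting and its use of strand are not stated. Of 25 folate one-carbon enzymes and carriers, such as Mthfd1 and Shmt1, Aldh1l1 is the one gene in the table. Beside this, 1.11% of all gene tests were listed as higher. The presence of Aldh1l1 was given by its selection, so nothing is read from this count.

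Slc4a4 (ENSMUSG00000060961, chromosome 5) had the highest counts of the 5 genes, with 1779, 1185 and 2401 normalized counts in the H3.3K27M tumours and 737, 544 and 556 in the others. It varied more with the mutation than without it, with a coefficient of variation of 34.0% against 17.6%, and replicate 3 was the highest and replicate 2 the lowest with it. The means were 1788 ± 608 and 612 ± 108 (SD, n = 3 each), and the adjusted p in the authors' deposited table was 0.0361. Of 28 bicarbonate and pH transport genes, including the other Slc4 transporters and the carbonic anhydrases, the table holds Slc4a4 alone. Beside this, 1.11% of all gene tests were listed as higher. The presence of Slc4a4 was given by its selection, so nothing is read from this count.

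Agt (ENSMUSG00000031980, chromosome 8) was at 281, 286 and 351 normalized counts in the H3.3K27M tumours and at 119.8, 156 and 154 in the others. It had the smallest difference and the smallest spread of the 5 genes, with coefficients of variation of 12.7% with the mutation and 14.2% without it. The means were 306 ± 38.9 and 143 ± 20.4 (SD, n = 3 each), with an adjusted p of 0.0102 in the authors' deposited table. Of 22 genes of the renin-angiotensin system, 2 are in the table, both higher and none lower, beside 1.11% of all gene tests listed as higher. The first is Agt itself, whose presence and direction were given by its selection, so nothing is read from this count. The second is Lnpep, an aminopeptidase that binds angiotensin IV, at 581, 687 and 779 normalized counts with the mutation and 138, 223 and 249 without it. The groups did not overlap for Lnpep, with 3.35-fold and an adjusted p of 2.09e-11 in the authors' deposited table. The genes for renin (Ren1), the converting enzyme (Ace) and the angiotensin receptors are not in the table.

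Itih3 (ENSMUSG00000006522, chromosome 14) had the fewest counts and the largest ratio of the 5 genes. It was at 149, 85.7 and 194 normalized counts in the H3.3K27M tumours and at 36.2, 27.3 and 50.2 in the others. The coefficients of variation, 38.0% and 30.4%, were the widest of the 5 genes in both groups. The means were 143 ± 54.3 and 37.9 ± 11.5 (SD, n = 3 each), and the adjusted p in the authors' deposited table was 0.0304. If 1 step of the deposited values is 1 read, Itih3 rests on 442 reads with the mutation and 110 without it, and counting alone gives the ratio of pooled reads an exact 95% interval of 3.11 to 4.78. No other inter-alpha-trypsin inhibitor chain, hyaluronan synthase or hyaluronan-binding proteoglycan of a list of 26 is in the table.

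**Figure D1:**
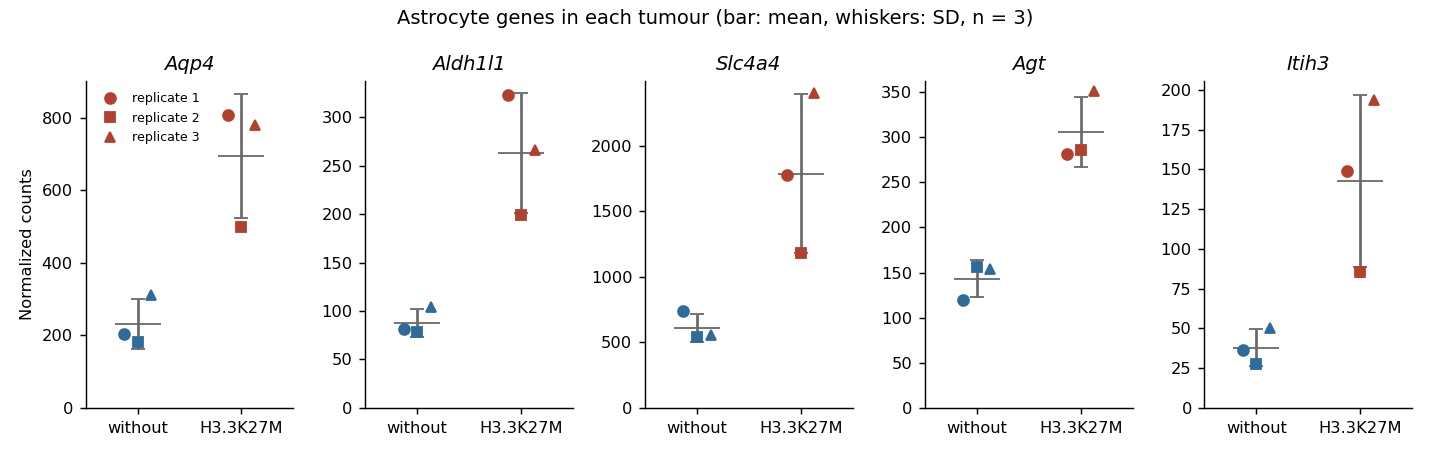
Normalized counts (y axis, from 0, scaled per gene) of the 5 astrocyte genes in each tumour without and with H3.3K27M; symbols mark replicates, bars the mean and whiskers the SD of 3 tumours. For each gene the 3 H3.3K27M tumours lie above the other 3, and H3.3K27M replicate 2 is the lowest of its group for all but Agt.

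As the groups did not overlap for any of the 5 genes, leaving out a tumour could change the size of a ratio but not its direction. Leaving out 1 tumour at a time put the ratio of means between 2.70-fold and 3.60-fold for Aqp4, between 2.64-fold and 3.35-fold for Aldh1l1, and between 2.42-fold and 3.41-fold for Slc4a4. The range was 1.97-fold to 2.24-fold for Agt and 3.10-fold to 4.52-fold for Itih3. The ranges of Agt and of the other 4 genes did not overlap, while those of Aqp4, Aldh1l1, Slc4a4 and Itih3 did. Ranked by fold among the 182 higher genes, Itih3 held rank 73, Aqp4 91, Aldh1l1 92, Slc4a4 97 and Agt 130, so all 5 lay away from both ends of the higher genes. The values nearest to the table's own threshold were those of Slc4a4 and Itih3, while the largest adjusted p in the table was 0.0495.

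**Figure D2:**
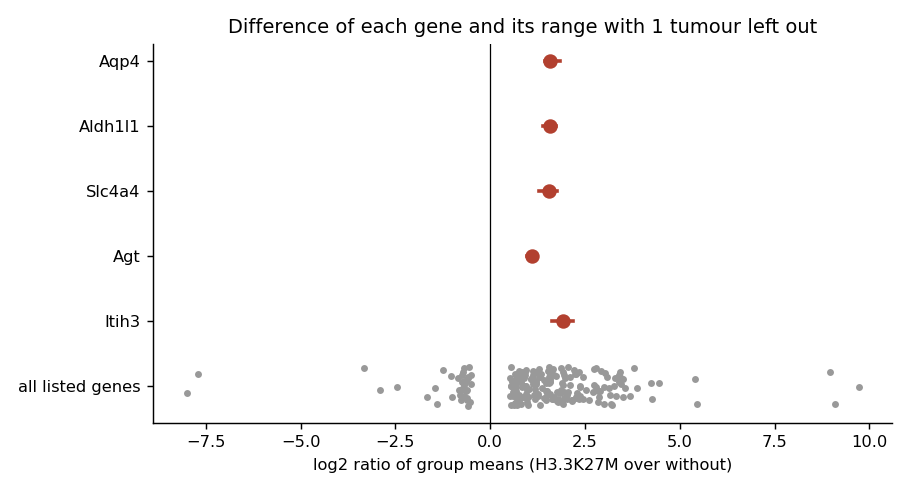
The log2 ratio of group means (x axis) of each astrocyte gene as a red point, with a line from the lowest to the highest value when 1 tumour was left out, above the 219 listed genes with a finite ratio as grey points spread vertically for visibility. The 5 genes lie between 1.09 and 1.91, within the main cloud of higher genes. No line could reach 0, since the groups do not overlap for these genes.

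Levels of different genes were set beside each other per kilobase of exon sequence, from the union of exons in GENCODE M21. In H3.3K27M tumours Slc4a4 was at 165 ± 56.2 and Agt at 162 ± 20.6 normalized counts per kilobase (SD, n = 3), and their values overlapped. Aqp4 followed at 112 ± 27.4, below every Agt value but overlapping with Slc4a4. Aldh1l1 at 58.2 ± 13.7 and Itih3 at 39.3 ± 14.9 overlapped each other and lay below the other 3 genes. Within each H3.3K27M tumour, Slc4a4 was above Aqp4 and Aldh1l1 above Itih3. Slc4a4 was above Agt in replicates 1 and 3 but below it in replicate 2. Without the mutation the level per kilobase was 75.7 ± 10.8 for Agt, 56.6 ± 9.99 for Slc4a4, 37.3 ± 11.1 for Aqp4, 19.5 ± 3.21 for Aldh1l1 and 10.4 ± 3.17 for Itih3 (SD, n = 3). There the values of Agt and Slc4a4 overlapped, and each of the next genes lay wholly below the one before it.

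Within a tumour, Aldh1l1 and Aqp4 kept the most even proportion. The ratio of Aldh1l1 to Aqp4 counts was 0.401, 0.400 and 0.341 with the mutation (replicates 1 to 3) and 0.401, 0.428 and 0.337 in the tumours without the mutation. It thus varied by 1.27 times over all 6 tumours, and the groups overlapped. The least even pair of the 10 was Itih3 and Agt, whose ratio varied by 3.16 times, from 0.175 in replicate 2 without the mutation to 0.552 in H3.3K27M replicate 3. The ratio of Agt to Aqp4 varied by 2.46 times, with 0.348, 0.573 and 0.450 with the mutation and 0.589, 0.856 and 0.495 without it, and these ranges overlapped too.

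H3.3K27M replicate 2 was the lowest of its group for 4 of the 5 genes, and it was also the lowest for 122 (67.0%) of the 182 higher genes of the table. On the log2 scale it lay 0.45 below its group's mean for Aqp4 (-0.45), with -0.37 for Aldh1l1, -0.53 for Slc4a4 and -0.65 for Itih3, against -0.09 for Agt. The median deviation of the other higher genes in this tumour was -0.27. Without the mutation, replicate 3 was the highest tumour for Aqp4, Aldh1l1 and Itih3, with deviations of 0.46, 0.26 and 0.44. It was the highest for 51 (28.0%) of the 182 higher genes, whose median deviation there was -0.06 without the 5 genes. Slc4a4 and Agt did not share this order, as Slc4a4 was highest in replicate 1 and Agt in replicate 2.

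**Figure D3:**
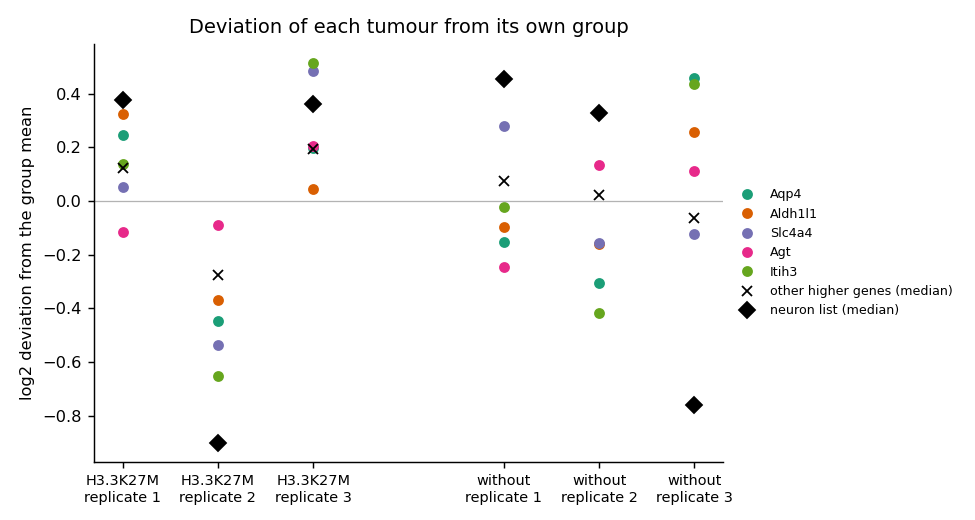
Log2 deviation (y axis) of each tumour (x axis) from the mean of its own group for the 5 astrocyte genes (coloured points), the median of the other higher genes (crosses) and the median of the 11 neuron-list genes in the table (diamonds). H3.3K27M replicate 2 lies below 0 for all of them. In replicate 3 without the mutation Aqp4, Aldh1l1, Itih3 and Agt (0.11) lie above 0. Slc4a4 (-0.12) and the neuron median (-0.76) lie below 0 there.

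Of 48 neuron markers, 11 are in the table, all higher with H3.3K27M and none lower, beside 1.11% of all gene tests listed as higher. They are in it because they differed between the groups, and how many of the 48 were tested is unknown. The neuron list was written with results of these data known, so its count is not read against the 1.11%. None of these 11 was at 0 in any tumour. Their summed level was 6117 to 12662 normalized counts with the mutation and 2186 to 3578 without it. The summed level of the 5 astrocyte genes, to which Slc4a4 gave the largest part in each tumour, was 3339, 2255 and 3991 with the mutation (replicates 1 to 3) and 1177, 988 and 1176 without it. With the mutation, both sums were lowest in replicate 2 and highest in replicate 3. Without it, the neuron sum was lowest in replicate 3, where the astrocyte sum came to 53.8% of it. This share was 32.9% and 36.0% in replicates 1 and 2 and 28.1% to 36.9% with the mutation. Cplx2 gave the largest part of the neuron sum in each tumour. In replicate 3 without the mutation Cplx2 gave 1335 of 2186 normalized counts, so the share there depends much on this gene. The part of neural tissue in the difference of the astrocyte genes was not tested.

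**Figure D4:**
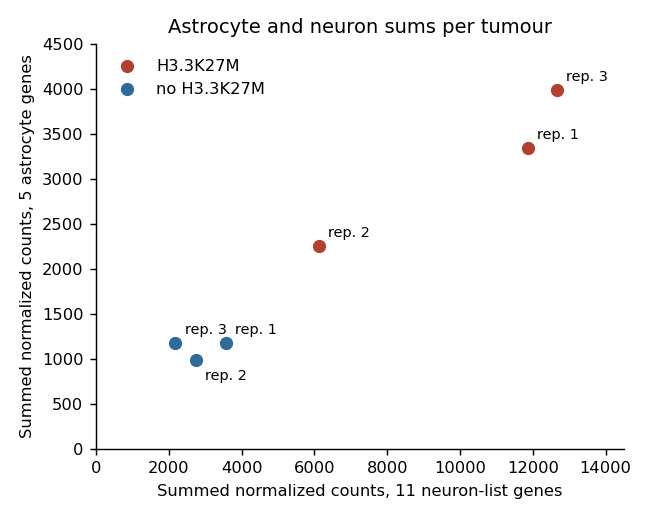
Summed normalized counts of the 5 astrocyte genes (y axis) against those of the 11 neuron-list genes in the table (x axis), 1 point per tumour, red with and blue without H3.3K27M. The groups stand apart on both axes, where all of these genes were selected for a difference, and within the H3.3K27M tumours replicate 2 is lowest on both.

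Most astrocyte markers have no value here. A list of 50 astrocyte markers was written with results of these data known and includes the 5 genes themselves. Of this list, 6 (12.0%) are in the table, all higher and none lower, beside 1.11% of all gene tests. As 5 of these 6 were taken from the table as higher genes, their presence and direction were given beforehand. Only 1 other marker of the list is in the table, so the 12.0% is not read against the 1.11%. How many of the 50 were tested is unknown. The other 44, among them Gfap, Slc1a2, Slc1a3, Gja1 and Sox9, are not in the table, which says nothing of their level. The label of the 5 genes was therefore given beforehand and could not be checked against these markers. For Itih3, described above as made mainly by the liver, no tie to astrocytes is given here. The marker besides the 5 genes is Paqr6, a membrane progestin receptor, at 35.8, 12.4 and 39.5 normalized counts with the mutation and 1.01, 3.90 and 1.09 without it. Its groups did not overlap, with 14.6-fold and an adjusted p of 0.0381 in the authors' deposited table. If 1 step is 1 read, Paqr6 rests on 91 against 6 reads, with an exact 95% interval of 6.42 to 40.6 for the ratio, counting error only. None of 30 reactive astrocyte markers, such as Vim, Lcn2 and Serpina3n, is in the table. Of 30 liver-secreted and acute phase genes the table holds Agt and Itih3 alone, beside 1.11% of all gene tests listed as higher. Both were taken from the table as higher genes, so nothing is read from this count. Albumin (Alb) is not in the table.

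Few markers of the other cell types have a value here. Their lists were also written with results of these data known. Of 24 genes listed as oligodendrocyte precursor markers the table holds 3 (Bcas1, Dll3 and Kcnip3), 0 higher and 3 lower. Beside this, 0.251% of all gene tests were listed as lower. The summed level of these 3 genes was 15558 to 20170 normalized counts with the mutation and 24700 to 29655 without it. Most of it came from Bcas1 and Kcnip3, with means of 9925 and 7122 with the mutation against 563 for Dll3. No change of precursor cells is read from this sum. Of 20 myelin markers 1 was higher (Ermn) and 1 lower (Pllp), beside 1.11% of all gene tests listed as higher and 0.251% as lower. Of 20 microglia and macrophage markers the table holds 1, the higher gene Chi3l3, beside the same 1.11%. Chi3l3 had few counts, with 12.4 to 39.5 normalized counts with the mutation and 0, 1.95 and 0 without it. Of 20 ependymal and choroid plexus markers the table holds 1, the higher gene Otx2, again beside 1.11%. Otx2 was at 153 to 239 with the mutation and at 28.2, 48.8 and 0 without it. Nothing is read from a single gene of a list. No endothelial marker of 16 is in the table. The part of these cells in the difference of the astrocyte genes was not tested.

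The genes whose profile over the 6 tumours came nearest to the mean profile of the 5 astrocyte genes were Abcd2, Fam40b, D10Bwg1379e, Mcc and Lpgat1. Likeness was the root mean square difference between log2 profiles, each centred on its own mean, over 218 other listed genes. As each profile spans both groups, this measure is set largely by the difference between the groups on which the genes were listed, and the nearest genes are mostly those of similar fold, such as Fam40b, Abcd2, D10Bwg1379e and Mcc at ranks 89, 90, 93 and 96 by fold. The root mean square difference was 0.14 for Abcd2 and Fam40b, 0.16 for D10Bwg1379e, 0.18 for Mcc and 0.19 for Lpgat1. The 5 astrocyte genes themselves lay 0.13 (Aldh1l1) to 0.32 (Agt) from their mean, and the median of the other higher genes was 0.48. Each of the 5 is part of that mean, which other genes are not, so a smaller distance was partly given beforehand. All 5 nearest genes lay closer to the mean than Slc4a4 (0.22), Itih3 (0.25) and Agt (0.32) did. The profile was thus not particular to the astrocyte genes. Abcd2, a peroxisomal carrier of very long chain fatty acids, was at 346, 245 and 345 normalized counts with the mutation and 92.6, 107 and 111 without it. It was among the nearest 5 under each of 8 alternative settings, Fam40b under 7, D10Bwg1379e under 6, Mcc under 4 and Lpgat1 under 2.

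Because the 5 genes were higher together, the sequences around their starts are shown for those that may be printed. The windows are RefSeq's, on build GRCm38.p6, and run from 250 bases before to 50 bases after an annotated start, in the gene's own direction. They cover 4 of the 5 genes in 5 windows, as Slc4a4 has 2 starts that the deposited counts cannot tell apart. Capitals mark the TATA box (TATAAA), the CCAAT box (CCAAT), the core of the nuclear factor I site (TTGGC), which can overlap a CCAAT box, and the STAT site (TTCNNNGAA), each on either strand.
Aldh1l1, chr6:90550543-90550842, plus strand: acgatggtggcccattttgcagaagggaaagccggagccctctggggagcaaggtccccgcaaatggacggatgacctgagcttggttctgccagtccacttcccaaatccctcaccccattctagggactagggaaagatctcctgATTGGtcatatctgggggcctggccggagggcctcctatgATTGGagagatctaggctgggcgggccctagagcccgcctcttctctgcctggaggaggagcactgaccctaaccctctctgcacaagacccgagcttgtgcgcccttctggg
Slc4a4, upstream start, chr5:88887010-88887309, plus strand: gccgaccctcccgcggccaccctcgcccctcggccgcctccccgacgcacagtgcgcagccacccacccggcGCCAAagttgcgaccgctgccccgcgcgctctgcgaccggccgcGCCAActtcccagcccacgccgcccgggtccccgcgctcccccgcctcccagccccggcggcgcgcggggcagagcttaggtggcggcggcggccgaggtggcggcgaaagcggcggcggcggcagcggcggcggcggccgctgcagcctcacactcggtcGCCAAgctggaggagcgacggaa
Slc4a4, downstream start, chr5:89027716-89028015, plus strand: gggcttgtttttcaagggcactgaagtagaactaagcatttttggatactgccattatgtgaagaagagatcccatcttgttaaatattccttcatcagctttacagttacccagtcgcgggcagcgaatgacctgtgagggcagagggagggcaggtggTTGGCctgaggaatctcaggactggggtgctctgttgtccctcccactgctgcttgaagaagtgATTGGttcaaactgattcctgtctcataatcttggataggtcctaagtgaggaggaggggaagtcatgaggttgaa
Agt, chr8:124569657-124569956, minus strand: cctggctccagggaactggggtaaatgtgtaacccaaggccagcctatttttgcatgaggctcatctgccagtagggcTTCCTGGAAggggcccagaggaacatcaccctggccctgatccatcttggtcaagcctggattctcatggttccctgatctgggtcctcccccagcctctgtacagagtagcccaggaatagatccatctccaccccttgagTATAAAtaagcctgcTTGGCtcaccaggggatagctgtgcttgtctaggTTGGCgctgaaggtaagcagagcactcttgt
Itih3, chr14:30923538-30923837, minus strand: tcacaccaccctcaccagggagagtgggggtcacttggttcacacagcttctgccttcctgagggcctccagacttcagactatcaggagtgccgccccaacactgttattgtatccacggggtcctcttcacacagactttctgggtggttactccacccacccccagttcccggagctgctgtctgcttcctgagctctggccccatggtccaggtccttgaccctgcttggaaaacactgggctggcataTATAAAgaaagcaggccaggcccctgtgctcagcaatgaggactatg

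The windows had little in common. The TATA box stood 30 bases before the start of Agt and 4 bases after that of Itih3, and in none of the other 3 windows. It is found in 13.6% of 32851 RefSeq windows of the same length. The CCAAT box, found in 37.4% of windows, was present on the minus strand in Aldh1l1, 103 and 63 bases before the start, and in the downstream window of Slc4a4, 26 bases before it. The nuclear factor I core, in 46.7% of windows, was found in both Slc4a4 windows and in Agt. The STAT site, in 8.30% of windows, was found in Agt alone, 172 bases before the start. The SOX core (ACAAAG, either strand), in 18.7% of windows, was in none of the 5, which says only that these letters are not in these windows. No motif was shared by all 4 genes.

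The upstream window of Slc4a4 differed from the rest in base composition. It was 80.0% G and C and held 50 CpG dinucleotides, an observed over expected ratio of 1.06, higher than that of 96.7% of RefSeq windows. The other windows held 1 to 9 CpG dinucleotides, with ratios of 0.33 for Aldh1l1, 0.18 for the downstream start of Slc4a4, 0.13 for Itih3 and 0.04 for Agt, against a median of 0.38. The ratio of Agt was higher than that of 5.64% of windows. These are descriptions of the windows and not of binding or methylation, which were not measured.

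**Figure D5:**
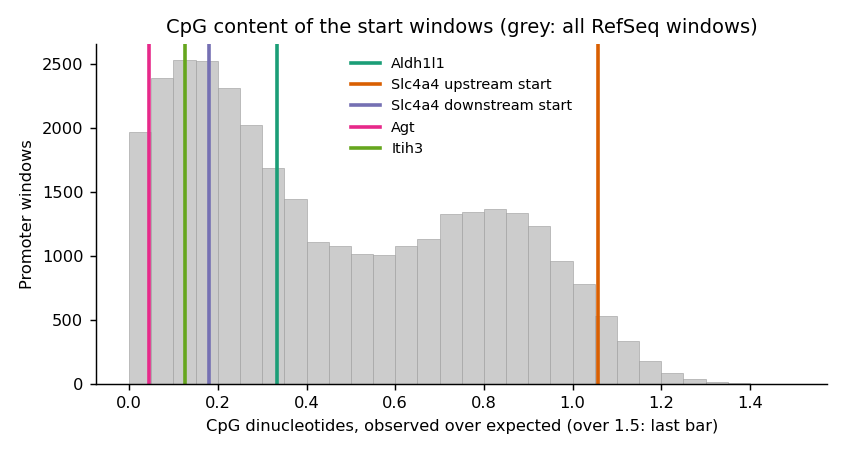
Number of RefSeq start windows (y axis) by their ratio of observed to expected CpG dinucleotides (x axis; grey bars, all 32851 windows), with coloured lines at the 5 windows of Aldh1l1, Slc4a4, Agt and Itih3. The upstream start of Slc4a4 lies at 1.06 in the CpG-rich mode, and the other 4 lie at or below 0.33.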

How the data were processed

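RNA was sequenced from 3 H3.3K27M and 3 other tumours, which the series calls independent, so each was 1 replicate. The submitters' processing notes name DESeq and the builds mm9 and NCBIM37. Aligner, counter and strand use were not given in the sources used here. The authors deposited, for 223 genes, a signal per tumour (normalized counts), group means, a ratio of means (fold change) with its log2, and p-values, raw and adjusted. The authors' adjusted p-values followed the Benjamini-Hochberg formula with 16365 tests, so the table holds the genes under 0.05. A gene not in it was either at or above that threshold or not tested.

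Tumour columns were matched by the opening number of the titles, and 0 of them lacked a sample. Replicates were numbered in sample order. All values (100%) of a tumour were whole multiples of its step (tolerance 0.01), with implied size factors of 0.917 to 1.06 and 215758 to 277881 implied reads over the listed genes. Total depth is unknown. That 1 step is 1 read was not settled, so no count test was run. Intervals are exact binomial (Clopper-Pearson) at 95% and cover counting error only.

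The members and the gene lists were chosen with earlier results of these data known. Because the 5 genes were chosen on the contrast, no test of it was run here and adjusted p-values are the authors'. Means, SDs, ratios, deviations of log2(normalized count + 1) and likeness were computed with Python 3.11.15 and pandas 2.3.3, and the steps were tested on simulated data. Besides the members, the text names the 5 nearest genes by likeness, every astrocyte-list or role-list gene in the table, and members of other lists where 5 or fewer are in it. Gene IDs were matched to GENCODE M21 for 220 of 223 genes, all 5 members included. That annotation is on another build than the authors', and served for chromosomes, exon lengths and overlaps. Alternatives were leaving out each tumour, group medians, mean log2 values with a pseudocount of 1 or 10, no size factors, a stricter adjusted p, a 2-fold minimum, and for likeness a minimum of 50 normalized counts.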

Additional observations from a re-analysis of the deposited data

How the results depend on the processing

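Over the 5 genes, 50 alternative values of the log2 ratio were computed. None changed sign, which the lack of overlap between the groups already ensured. With 3 tumours a group, leaving 1 out can hardly move a ratio by 1 SD either, so the next count is no measure of stability. Of the 50 values, 49 moved by less than 1 SD between tumours. The exception was Agt with group medians, at 0.90 on the log2 scale (1.86-fold) against 1.09 with means. With 1 tumour left out the log2 ratio was 1.44 to 1.85 for Aqp4, 1.40 to 1.74 for Aldh1l1, 1.28 to 1.77 for Slc4a4, 0.98 to 1.16 for Agt and 1.63 to 2.18 for Itih3, and the median of the 5 was 1.46 to 1.77. Without size factors the log2 ratios of the listed genes shifted by a median of 0.07. At an adjusted p under 0.01 in the authors' deposited table, 2 of the 6 astrocyte markers in it were left (Aqp4 and Aldh1l1). The share of all gene tests listed as higher there was 0.477%. All 6 markers were at least 2-fold higher, beside 0.813% of all gene tests. As all of them but Paqr6 were taken from the table as higher genes, nothing is read from these counts. Of the 5 genes named by likeness, 1 to 4 were kept when 1 tumour was left out. The 1 was kept (Abcd2) without replicate 3 of the tumours without the mutation, so this list depends on single tumours. No paired analysis was possible because the labels give no replicate numbers that the groups share. With 3 tumours a group and no total depth, the order of tumours within a group is described and not tested.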

Other observations

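A few genes on lists of radial and Bergmann glia and of mural cells and fibroblasts were also among the listed genes. Of 21 radial and Bergmann glia markers, 2 are in the table, both higher with H3.3K27M and none lower, beside 1.11% of all gene tests listed as higher. The receptor Notch2 was at 398, 426 and 511 normalized counts with the mutation and 216, 270.3 and 269 without it, and the Hedgehog receptor Ptch1 at 2039, 2171 and 2213 against 1199, 1295 and 1626. Of 18 mural and fibroblast markers, 3 are in the table (Lum, Dcn and Lox), all higher and none lower, beside the same 1.11%, with summed levels of 1116 to 1764 normalized counts with the mutation and 279.8 to 556 without it. Within the H3.3K27M tumours this sum was highest in replicate 3, as was that of the 5 astrocyte genes, but lowest in replicate 1, where the astrocyte sum was lowest in replicate 2. These lists were written with results of these data known, and their counts are descriptions.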
